A study of Mus musculus with 8 samples.

Results

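The 10 genes described here are 3 fibroblast growth factor (FGF) receptors (Fgfr1, Fgfr2 and Fgfr3), 4 FGF ligands (Fgf1, Fgf2, Fgf7 and Fgf10) and 3 Sprouty inhibitors (Spry1, Spry2 and Spry4). They were taken by gene symbol from the deposited expression table, 10 of 49671 genes. RNA was sequenced from sorted mammary gland cells of female mice of mixed genetic backgrounds, in 8 libraries that form 4 groups of 2.

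CD1 luminal libraries came from 40000 cells of CD1 mice that lacked surface CD45, CD31 and CD140a and carried CD24 with low CD29, and CD1 basal libraries from 5000 cells with the same marks and high CD29. DNp63 luminal and DNp63 basal libraries came from the same 2 gates and cell numbers, with the added gate of GFP, in mice carrying K8rtTA, TetOCre and the Rosa26-DNp63-IRES-GFP cassette. In that model the keratin 8 promoter, which is active in luminal cells, drives the doxycycline-dependent activator rtTA, rtTA switches on Cre, and Cre releases expression of ΔNp63 with GFP. ΔNp63 is the p63 form that basal cells normally make. Neither the age of the mice nor the schedule of induction is given in the sources used here. Nor do the labels say whether replicate libraries came from different mice, so p-values measure only the spread between these libraries, which may be technical. Transgene, strain and GFP gate went together, and their parts in any difference between DNp63 and CD1 libraries cannot be told apart. Likewise gate and cell number (40000 or 5000) went together, and their parts in any difference between luminal and basal libraries cannot be told apart.

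FGF ligands bind receptor tyrosine kinases at the cell surface together with heparan sulfate chains, and the receptors signal through the adaptor Frs2, Ras and the ERK kinases, and through phospholipase C gamma. Sprouty proteins are induced by this signal and restrain it, so their transcripts are often read as targets of the pathway as well as inhibitors. In the mammary gland Fgf7 and Fgf10 are known as products of the stroma, and Fgfr2, in the splice form of epithelia that binds them, is known for its role in bud formation and duct branching. Counts per gene cannot separate the splice forms of the receptors.

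Upstream sequence was examined for the members because p63 and ETS factors, the transcription factors that act at the end of ERK signalling, both read short DNA cores. The 250 bases before the RefSeq start site (GRCm38.p6) were taken for 7 of the 10 members (all but Fgfr1, Fgf1 and Spry4). They were searched for CATG, the central core of p53-family sites, which is its own reverse complement, and for the ETS core GGAA on both strands (GGAA or TTCC). Cores that stood as a pair, with 6 bases between one CATG and the next, were counted apart. Of these windows, 3 are shown, those of the Sprouty gene with the widest range between gates (Spry1), the one with the narrowest (Spry2) and the receptor that was higher in the luminal gate (Fgfr2). Each runs 5′ to 3′ on the strand of the gene, with CATG, GGAA and TTCC in capitals.
Spry1, plus strand, chr3:37639697-37639946: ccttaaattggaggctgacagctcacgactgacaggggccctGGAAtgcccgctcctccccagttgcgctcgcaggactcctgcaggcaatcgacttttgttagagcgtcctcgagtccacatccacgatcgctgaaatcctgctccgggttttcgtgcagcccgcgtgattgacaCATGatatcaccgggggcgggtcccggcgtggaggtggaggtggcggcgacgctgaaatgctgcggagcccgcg
Spry2, minus strand, chr14:105896820-105897069: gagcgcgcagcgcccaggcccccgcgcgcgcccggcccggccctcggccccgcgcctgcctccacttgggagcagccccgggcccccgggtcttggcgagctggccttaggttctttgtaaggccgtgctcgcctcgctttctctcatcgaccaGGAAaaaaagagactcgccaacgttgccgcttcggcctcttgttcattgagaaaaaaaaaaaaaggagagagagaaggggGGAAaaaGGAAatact
Fgfr2, minus strand, chr7:130266809-130267058: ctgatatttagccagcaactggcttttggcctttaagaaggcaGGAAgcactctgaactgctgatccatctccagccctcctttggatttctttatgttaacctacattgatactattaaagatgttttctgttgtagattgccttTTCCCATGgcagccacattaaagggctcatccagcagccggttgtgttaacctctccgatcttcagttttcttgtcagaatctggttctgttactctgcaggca

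The Spry1 window held 1 CATG and 1 ETS core, and all 250 of its bases lie in an exon that GENCODE M21 gives to Gm42922, a transcript of the other strand. The Spry2 window held 0 CATG and 3 ETS cores. The Fgfr2 window held 1 CATG, directly next to 1 of its 2 ETS cores. CATG pairs numbered 0 in the windows of all 7 members. Of 32851 windows of the same length, 53.9% held CATG, 0.49% held the pair and 93.4% held an ETS core, with a median of 3 ETS cores a window. The counts in the 3 printed windows are thus of the kind found in many promoters, and a match is a description of letters, not a bound site. The windows of Spry1 and Spry2 had the same GC content, 62.4%, above the median of 52.4% over all windows, and the Fgfr2 window had 44.0%.

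Values are reads per 20000000, as the authors scaled them, and both library values of each group are given in the order replicate 1, replicate 2. Recovered depth was 4136998 to 7206729 reads per library, so that 1 read was worth 2.7752 to 4.8344. Differences are log2 differences of scaled values with 8 added, from limma over all 8 libraries, given ± SE. A gene was called when its p, two-sided and adjusted by Benjamini-Hochberg over the 16900 genes tested, was under 0.05. All 10 members passed the filter on low values (at least 40 in at least 2 libraries). Of them 8 also reached that value in 2 luminal libraries, whereas Fgf7 and Fgf10 did not and passed with the help of basal libraries. Replicate libraries differed beyond sampling of reads, with a chi-square of 5.616 to 14.487 for each degree of freedom.

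The gates matched their labels in the epithelial genes. The basal keratin Krt5 read 97 to 167 in luminal and 7502 to 14973 in basal libraries, and the luminal keratin Krt8 read 42397 to 45769 in luminal and 3688 to 8264 in basal libraries. Trp63, the gene of p63, read 45 and 61 in CD1 luminal, 1297 and 1460 in DNp63 luminal and 5457 to 8306 in basal libraries. The gates also differed in markers of cells other than epithelium. The sum of 12 endothelial markers was 2686 to 4595 in luminal and 39323 to 58402 in basal libraries although CD31-positive cells had been sorted out. Of the 12, 11 were called higher in each comparison of a basal with a luminal group. Much of the luminal endothelial sum was Vwf, which did not follow the others, at 1442 to 2837 in luminal and 943 to 3104 in basal libraries. Sums of 10 pericyte markers (4260 to 5904 against 18406 to 25038) and 10 adipocyte markers (575 to 848 against 16238 to 28930) were also higher in the basal libraries. Most of the luminal pericyte sum was Notch3, which did not follow the other pericyte markers. It read 3757 to 5255 in luminal and 2959 to 4416 in basal libraries. Most of the adipocyte sum was Fabp4, at 372 to 575 in luminal and 13967 to 21865 in basal libraries. In such bulk samples fewer cells of a type and less RNA per cell cannot be told apart. Xist, the RNA of the inactive X chromosome, read 36 in the second DNp63 luminal and 141 in the second DNp63 basal library, against 55545 to 111346 in the other 6, although all were labelled female. The counts of calls that rest on those 2 libraries are therefore also given without them. Each DNp63 group then holds 1 library, which is assumed to vary like the CD1 libraries, and such values compare single DNp63 libraries.

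Across the gates of CD1 mice, the basal libraries held more Spry1, Spry4, Fgf2, Fgf1 and Fgfr3 and less Fgfr2 than the luminal libraries. That is 5 of 10 members called higher and 1 called lower. Of all genes tested, 24% were called higher and 20.4% lower in this comparison, 44.4% in all. Calls were thus common among all genes, and it is the sizes that set the members apart from one another. They ran from -1.05 for Fgfr2 to 3.55 for Spry1, with a median of 0.76 over the members and -0.02 over all genes.

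**Figure D1:**
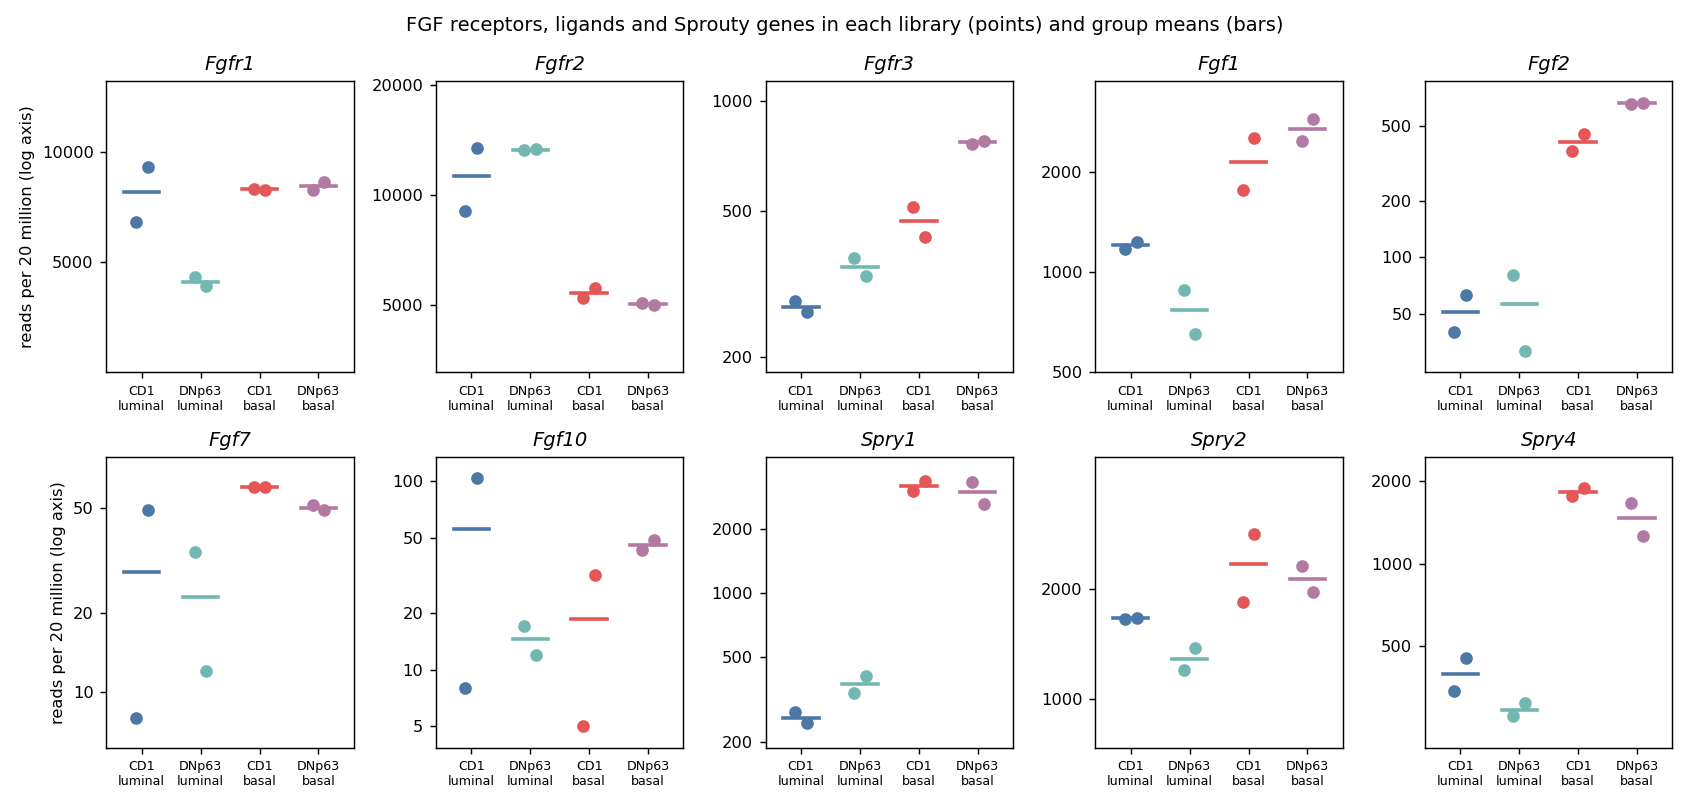
Each panel plots 1 gene, with the value of every library in reads per 20000000 on a log axis (points) and the mean of each group of 2 (bars). Luminal and basal libraries do not overlap for Fgfr2, Fgfr3, Fgf1, Fgf2, Spry1, Spry2 and Spry4, with the widest gaps for Spry1, Spry4 and Fgf2. How often all genes separate in this way was not counted. Fgf7 and Fgf10 spread widely within the CD1 luminal group.

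Fgfr1 (chr8:25513654-25575718, plus strand), the receptor found in many epithelial and mesenchymal cells, read 6418 and 9091 in CD1 luminal and 4541 and 4297 in DNp63 luminal libraries, against 7911 and 7889 in the CD1 basal pair and 7882 and 8263 in the DNp63 basal pair. The 2 DNp63 luminal libraries were the lowest of the 8, and the CD1 luminal pair spanned both basal groups. Between the CD1 gates the difference was 0.03 ± 0.16 (95% interval -0.35 to 0.40, limma adjusted p = 0.916).

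Fgfr2, the main epithelial receptor of Fgf7 and Fgf10, lies on chromosome 7 (minus strand, 130162451 to 130266808 in RefSeq). A longer GENCODE model shares 314 exonic bases with Ctbp2, and reads there may be split between the genes. Fgfr2 read 9078 and 13433 in CD1 luminal and 13282 and 13370 in DNp63 luminal libraries, and 5247 and 5585 in the CD1 basal pair and 5062 and 5019 in the DNp63 basal pair. All 4 luminal libraries stood above all 4 basal ones. Fgfr2 was lower in the CD1 basal gate than in CD1 luminal cells by 1.05 ± 0.17 on the log2 scale, 2.07-fold, with an adjusted p of 0.00153. The same gates differed 2.53-fold in DNp63 mice (-1.34 ± 0.17, adjusted p = 0.000353).

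Fgfr3 (chr5:33721674-33737068, plus strand) was the scarcest of the 3 receptors. It read 284 and 264 in CD1 luminal and 372 and 333 in DNp63 luminal libraries, against 513 and 424 in the CD1 basal pair and 763 and 779 in the DNp63 basal pair. The 4 groups did not overlap and stood in that order. The difference of CD1 basal from CD1 luminal was 0.73 ± 0.18 (adjusted p = 0.00954), and without the first CD1 basal library it was 0.60 and not called (adjusted p = 0.0747). The DNp63 gates differed by 1.17 ± 0.18 (adjusted p = 0.000754), and by 1.04 without the 2 libraries of low Xist (adjusted p = 0.0503). Fgfr3 shares 998 of 7158 exonic bases with G630022F23Rik on the other strand, and the strand setting of the counting is not given, so reads there cannot be assigned.

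Because the receptors differ in length, their levels were compared per kilobase of exon. On that scale Fgfr2 made up 56.0% and 57.6% of the summed receptor level in CD1 luminal, 71.5% and 72.9% in DNp63 luminal libraries, 36.8% and 38.7% in the CD1 basal pair and 35.1% and 34.0% in the DNp63 basal pair. Fgfr1 held most of the rest, and Fgfr3 ranged from 1.63% to 7.64%. The ratio of Fgfr2 to Fgfr1 was 1.352 and 1.413 in CD1 luminal cells, 2.797 and 2.975 in DNp63 luminal cells, 0.634 and 0.677 in CD1 basal cells and 0.614 and 0.581 in DNp63 basal cells. Fgfr2 was thus the leading receptor transcript in every luminal library and Fgfr1 in every basal library. The ratio was highest in the DNp63 luminal pair, where Fgfr1 was at its lowest.

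**Figure D2:**
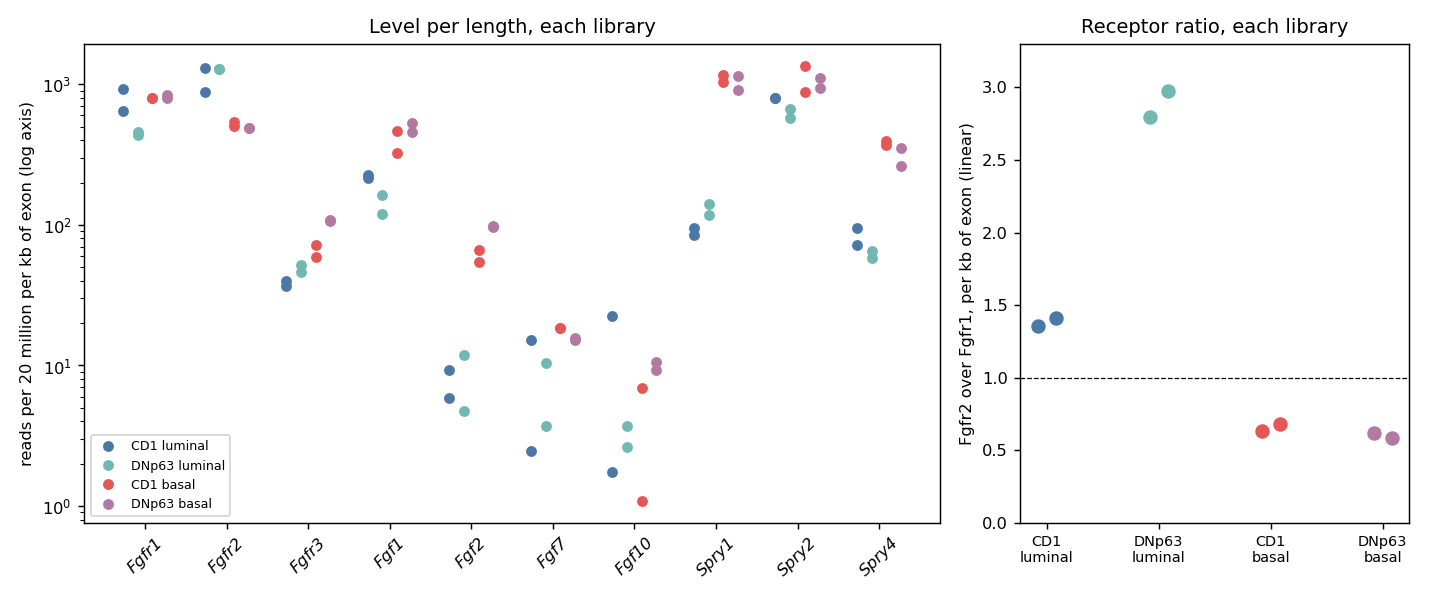
The left panel plots each member in each library as reads per 20000000 per kilobase of exon (log axis), and the right panel plots the ratio of Fgfr2 to Fgfr1 on that scale (linear axis, points are libraries, the dashed line marks equal levels). The ratio lies above the dashed line in the 4 luminal libraries, at 1.352 to 2.975, and below it in the 4 basal libraries, at 0.581 to 0.677.

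Fgf1 (chr18:38838673-38929472, minus strand), a ligand that binds all FGF receptors and is made without a signal peptide, was the most abundant of the 4 ligands per kilobase in every library. It read 1178 and 1230 in CD1 luminal and 886 and 650 in DNp63 luminal libraries, against 1768 and 2528 in the CD1 basal pair and 2487 and 2896 in the DNp63 basal pair. Luminal and basal libraries did not overlap, and the DNp63 luminal pair was the lowest. CD1 basal cells exceeded CD1 luminal cells by 0.79 ± 0.22 (1.72-fold, adjusted p = 0.0176). Leaving out the first CD1 luminal library (0.74, adjusted p = 0.0575) or the second CD1 basal library (0.48, adjusted p = 0.165) ended this call. In DNp63 mice the gates differed by 1.87 ± 0.22 (adjusted p = 0.000184).

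Fgf2 (chr3:37348346-37410108, plus strand), the other ligand without a signal peptide and one with high affinity for heparan sulfate, had the widest range among the ligands with calls. It read 40 and 63 in CD1 luminal and 81 and 32 in DNp63 luminal libraries, against 367 and 452 in the CD1 basal pair and 654 and 663 in the DNp63 basal pair. Its luminal values rest on 8 to 29 reads a library and its basal values on 80 to 155. CD1 basal cells exceeded CD1 luminal cells by 2.81 ± 0.39 (7.01-fold, adjusted p = 0.000608), and DNp63 basal cells exceeded DNp63 luminal cells by 3.53 ± 0.39 (adjusted p = 0.000149). Fgf2 shares 640 exonic bases with its antisense neighbour Nudt6, which read 12 to 60 in the 8 libraries. Without the strand setting, reads of the 2 genes cannot be told apart there. The summed level of 12 fibroblast markers was 10781 and 51597 in CD1 luminal and 25306 and 18069 in DNp63 luminal libraries, and 52176 and 78962 in the CD1 basal pair and 115805 and 139677 in the DNp63 basal pair. Of the 11 fibroblast markers tested, 2 were called higher in the basal gate of CD1 mice and 5 in that of DNp63 mice. Between the CD1 gates most of the rise of the sum came from Postn. It read 603 and 5383 in CD1 luminal and 32335 and 26876 in CD1 basal libraries. Dcn (-0.79 ± 0.45), Lum (0.12 ± 0.96) and Pdgfra (0.35 ± 0.75) were not called between these gates. In CD1 mice 11 of 12 endothelial, 9 of 10 pericyte and 10 of 10 adipocyte markers were called higher in the basal gate. So were 6 of 6 Schwann cell markers, beside 24% of all genes. Some of these markers passed the filter with the help of basal libraries. Its value was reached in 2 luminal libraries by 11 endothelial (10 called higher), 6 pericyte (5), 3 adipocyte (3) and 5 Schwann cell markers (5). The part of any of these cell types in the Fgf2 and Fgf1 differences was not tested.

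Fgf7 (chr2:126034658-126091185, plus strand), also called keratinocyte growth factor, was near the limit of detection. It read 8 and 49 in CD1 luminal and 34 and 12 in DNp63 luminal libraries, against 60 and 60 in the CD1 basal pair and 51 and 49 in the DNp63 basal pair, from 2 to 15 reads each. The second CD1 luminal library equalled the second DNp63 basal library, so luminal and basal libraries met at that value. Fgf7 was not called between the CD1 gates (1.15 ± 0.61, 95% interval -0.24 to 2.55, adjusted p = 0.158). With the second CD1 luminal library left out the difference was 2.08 and was called (adjusted p = 0.0154).

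Fgf10 (chr13:118669791-118792115, plus strand), the stromal ligand of Fgfr2 in bud formation, read 8 and 104 in CD1 luminal and 17 and 12 in DNp63 luminal libraries, against 5 and 32 in the CD1 basal pair and 43 and 49 in the DNp63 basal pair, from 1 to 28 reads each. Its highest value was in the second CD1 luminal library and its lowest in the first CD1 basal library. The DNp63 basal pair stood above the DNp63 luminal and CD1 basal pairs, and the CD1 luminal pair spanned all other libraries but the lowest. The CD1 gates differed by -0.91 ± 0.86 (95% interval -2.88 to 1.06, adjusted p = 0.425). Without the first CD1 luminal library the difference was -2.33 and was called (adjusted p = 0.0263), and the largest value over the 8 libraries left out in turn was 0.51. The fibroblast marker sum was 51597 in the second CD1 luminal library against 10781 in the first, and the defining marker Pdgfra, the gene of the sorted-out CD140a, read 196 in the first and 1049 in the second. At this depth no difference of Fgf10 between gates was detectable over all 8 libraries, and the part of fibroblast RNA in its level was not tested.

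**Figure D3:**
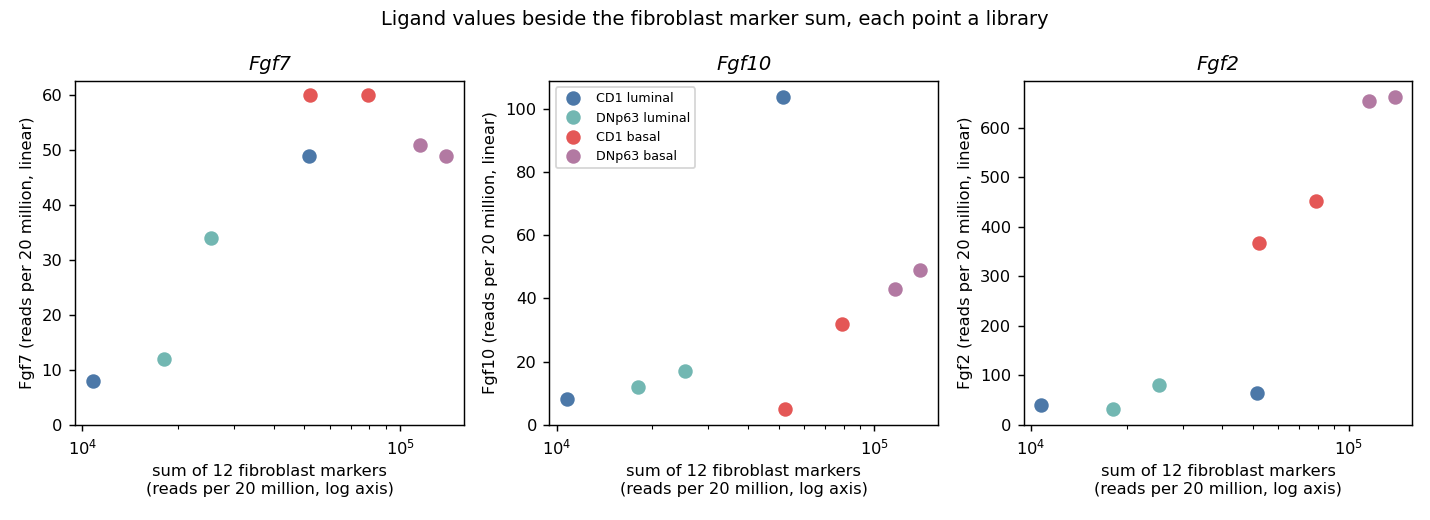
Each panel plots a ligand (vertical axis, reads per 20000000, linear) against the summed level of 12 fibroblast markers (horizontal axis, log scale), with 1 point a library and a colour for each group. The point of the second CD1 luminal library is the highest for Fgf10, at 104, while the highest points for Fgf2 are the DNp63 basal pair, at 654 and 663.

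Spry1 (chr3:37639947-37644598, plus strand) showed the largest difference of any member between the CD1 gates. It read 277 and 245 in CD1 luminal and 342 and 411 in DNp63 luminal libraries, against 3031 and 3370 in the CD1 basal pair and 3343 and 2630 in the DNp63 basal pair. The lowest basal library stood far above the highest luminal one. CD1 basal cells exceeded CD1 luminal cells by 3.55 ± 0.16 (11.7-fold, adjusted p = 1.92e-06), and the DNp63 gates differed by 3.02 ± 0.16 (8.09-fold, adjusted p = 3.17e-06). Spry1 shares 710 of its 2906 exonic bases with Gm42922 on the other strand.

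Spry4 (chr18:38586247-38601415, minus strand) read 344 and 452 in CD1 luminal and 278 and 310 in DNp63 luminal libraries, against 1754 and 1881 in the CD1 basal pair and 1665 and 1257 in the DNp63 basal pair. It followed the order of Spry1 between gates, without overlap. CD1 basal cells exceeded CD1 luminal cells by 2.16 ± 0.19 (4.46-fold, adjusted p = 4.94e-05), and the DNp63 gates differed by 2.33 ± 0.19 (adjusted p = 2.59e-05).

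Spry2 (chr14:105891947-105896819, minus strand) differed least among the 3. It read 1656 and 1671 in CD1 luminal and 1199 and 1382 in DNp63 luminal libraries, against 1845 and 2827 in the CD1 basal pair and 2306 and 1968 in the DNp63 basal pair. The basal libraries stood above the luminal ones, but the CD1 basal pair was spread widely. The CD1 gates differed by 0.43 ± 0.20 (95% interval -0.02 to 0.88, adjusted p = 0.107), and by 0.74 without the first CD1 basal library (adjusted p = 0.0114). The DNp63 gates differed by 0.78 ± 0.20 and were called (adjusted p = 0.0108). That call was lost without the first DNp63 luminal library (0.72, adjusted p = 0.0704), without the first DNp63 basal library (0.68, adjusted p = 0.0839) and without both libraries of low Xist (0.96, adjusted p = 0.0834).

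Per kilobase of exon, Spry2 accounted for 76.2% to 82.6% of the summed Sprouty level in luminal libraries and 38.5% to 46.6% in basal libraries. The Spry1 share was 8.60% and 9.92% in CD1 luminal cells, 15.7% and 16.3% in DNp63 luminal cells and 39.9% to 45.4% in the basal libraries. Luminal cells thus held mostly Spry2, and basal libraries held Spry1 and Spry2 at like levels with Spry4 at 12.5% to 16.1%. Most endothelial markers moved with Spry1 and Spry4. Cdh5, the cadherin of endothelium, read 173 to 348 in luminal and 11042 to 15106 in basal libraries. Kdr, a receptor of vascular endothelial growth factor, read 122 to 245 and 8446 to 12688. Vwf, of the same list, did not follow, at 1442 to 2837 and 943 to 3104. The pericyte marker Rgs5 read 195 to 369 and 6933 to 10073, whereas Notch3 of the same list read 3757 to 5255 and 2959 to 4416. The adipocyte marker Lep read 0 in all 4 luminal libraries and 5 to 108 in the basal ones, where 5 is 1 read. It passed the filter through the basal libraries alone, and 3 of the 10 adipocyte markers also reached the filter value in 2 luminal libraries. Adipoq, of the same list, read 0 to 8 and 37 to 160. The part of these cells in the Sprouty differences was not tested.

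**Figure D4:**
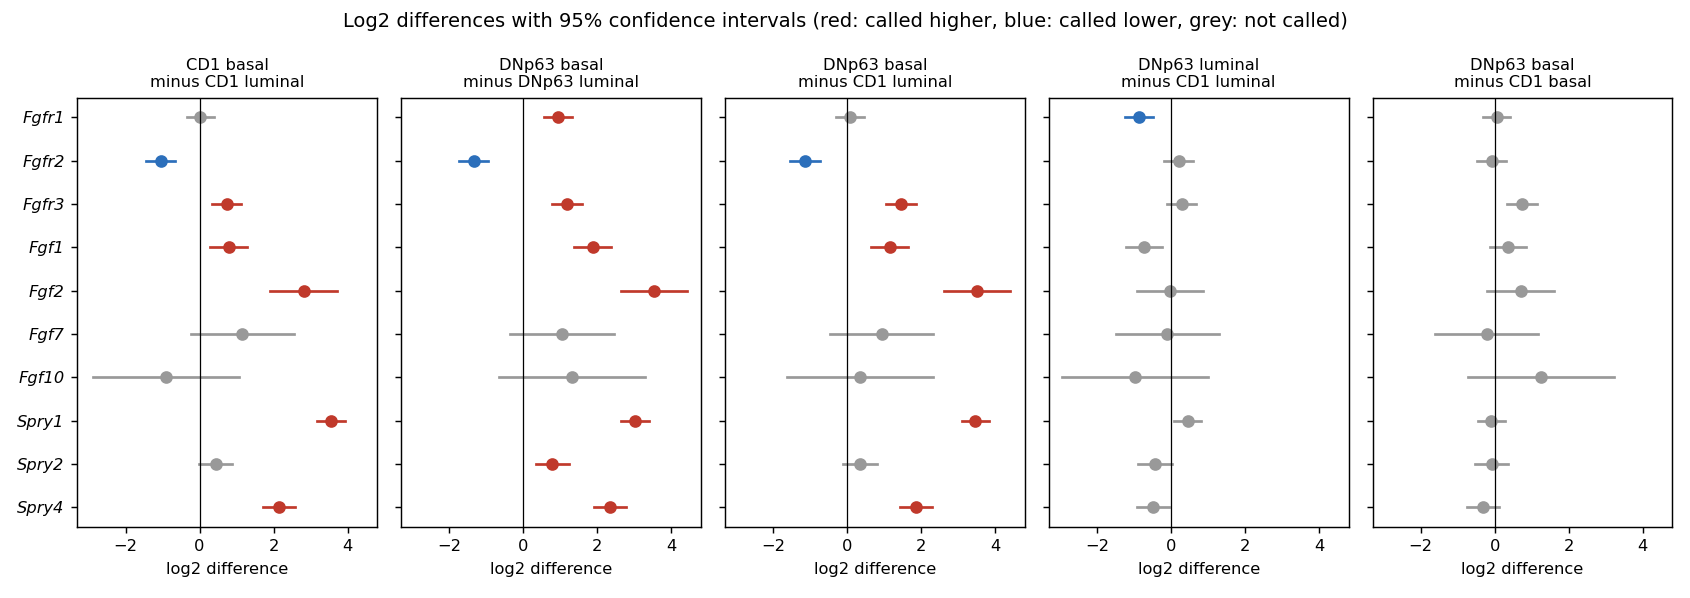
Each panel is 1 comparison, and each row a gene with its log2 difference (point) and 95% confidence interval (line), in red if called higher, blue if called lower and grey if not called. The 3 panels of a basal against a luminal group show long positive differences for Spry1, Fgf2 and Spry4 and a negative one for Fgfr2, and the panel of DNp63 luminal against CD1 luminal shows Fgfr1 as its only call.

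DNp63 luminal cells were set against CD1 luminal cells to ask which of these genes differed in the luminal gate of the transgenic mice. Fgfr1 was the only member called. It was lower by 0.85 ± 0.16 on the log2 scale, 1.81-fold (95% interval -1.23 to -0.48, adjusted p = 0.0248). The 1 of 10 members called stands beside 4.34% of all genes called in this comparison (2.58% higher, 1.76% lower). The Fgfr1 call was not stable: the adjusted p was 0.104 without the intensity trend and 0.0952 when only these 2 groups were fitted. Leaving out 1 library at a time ended it in 5 of 8 cases (adjusted p of 0.0859 and 0.181 without the first and second DNp63 luminal library, 0.0503 without the first CD1 basal library, and 0.0564 and 0.054 without either DNp63 basal library). Without both libraries of low Xist the difference was -0.80 with an adjusted p of 0.344. Fgfr1 stayed lower under every setting tried in this comparison.

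The other members gave no call there. Fgf1 differed by -0.72 ± 0.22 (95% interval -1.22 to -0.23, adjusted p = 0.117), and Spry4 by -0.48 ± 0.19 (adjusted p = 0.237). Spry1, with 342 and 411 against 277 and 245, differed by 0.45 ± 0.16 (95% interval 0.08 to 0.82, adjusted p = 0.194). The libraries of the 2 groups did not overlap for these 3 genes, nor for Fgfr1, Fgfr3 and Spry2. How often all genes separate in this way was not counted. The differences of the 3 genes did not pass the test over all genes. Spry2 differed by -0.43 ± 0.20 and Fgfr2 by 0.21 ± 0.17. For Spry1 the interval lies far below the 3.55 that separated the CD1 gates, and for Fgf2 the difference was -0.02 ± 0.39 against 2.81. Of the marker lists, the 12 endothelial markers had 0 calls in this comparison by limma (5 at an unadjusted p under 0.05), and the 11 fibroblast markers tested had 1 higher and 1 lower. The sum of 10 immune markers was 12013 and 10089 in CD1 luminal and 3558 and 4324 in DNp63 luminal libraries, with 0 of 8 tested called (2 at an unadjusted p under 0.05) and most of the sum from Cd14 alone. Its part in the Fgfr1 difference was not tested, and Ptprc, the gene of the sorted-out CD45, read 47 and 75 against 48 and 71.

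Against CD1 luminal cells, DNp63 basal cells differed in 6 of 10 members, with 5 higher and 1 lower, where 25.7% of all genes were called higher and 21.3% lower (47% in all). Spry1 was higher by 3.46 ± 0.16, Fgf2 by 3.51 ± 0.39, Spry4 by 1.85 ± 0.19, Fgfr3 by 1.46 ± 0.18 and Fgf1 by 1.15 ± 0.22, and Fgfr2 was lower (-1.14 ± 0.17), with adjusted p of 1.65e-06 to 0.00274. Without the 2 libraries of low Xist the same 6 were called, with adjusted p of 0.000295 (Spry1) to 0.0309 (Fgf1). Fgf7 was not called (0.94 ± 0.61, adjusted p = 0.239) except when the second CD1 luminal library was left out (1.87, adjusted p = 0.0233). This comparison and the one between the CD1 gates share the CD1 luminal libraries, and their values stand here side by side only.

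DNp63 basal cells were then compared with CD1 basal cells, which share the CD24 and CD29 gate but not the transgene, strain or GFP gate. No member was called by limma (0 of 10, with 1, Fgfr3, at an unadjusted p under 0.05, and 0 by limma voom on recovered reads), where 0.604% of all genes were called (0.195% higher, 0.408% lower). Fgfr3 had the smallest p, with 763 and 779 against 513 and 424, a difference of 0.73 ± 0.18 (95% interval 0.33 to 1.13, adjusted p = 0.143). Fgf2, at 654 and 663 against 367 and 452, differed by 0.70 ± 0.39 (95% interval -0.20 to 1.60, adjusted p = 0.582). The libraries of the 2 groups did not overlap for either gene, nor for Fgf10 (higher) or Fgfr2, Fgf7 and Spry4 (lower). How often all genes separate in this way was not counted. For Fgfr1 (0.05), Fgfr2 (-0.08), Spry1 (-0.09) and Spry2 (-0.08) the interval of the difference stayed within -0.53 to 0.42. The fibroblast marker sum was also higher in this comparison, with 0 of 11 markers called and 5 at an unadjusted p under 0.05. The sum of 11 luminal epithelial markers was 42823 and 39161 in the CD1 basal pair and 17547 and 19643 in the DNp63 basal pair, with 6 called lower. The part of either list in the Fgf2 and Fgfr3 values was not tested.

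Within the DNp63 mice 8 of 10 members were called between the gates, 7 higher and 1 lower in basal cells, where 48.5% of all genes were called (25.5% higher, 23% lower). Besides those described, Fgfr1 was higher in DNp63 basal than in DNp63 luminal cells by 0.93 ± 0.16 (1.90-fold, adjusted p = 0.0019). Without the 2 libraries of low Xist 5 members were called, and Fgfr1 (0.81, adjusted p = 0.0861), Fgfr3 and Spry2 were not. Fgf10 was not called (1.31 ± 0.86, adjusted p = 0.24), but was when only these 2 groups were fitted (adjusted p = 0.0184).

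Whether the difference between DNp63 and CD1 mice itself differed between gates was tested as an interaction. No member was called by limma (0 of 10, with 3 at an unadjusted p under 0.05, and 0 by limma voom), where 0.331% of all genes were called (0.0828% higher, 0.249% lower). Those 3 were Fgfr1 (0.90 ± 0.23, adjusted p = 0.172), Fgf1 (1.09 ± 0.31, adjusted p = 0.207) and Spry1 (-0.54 ± 0.23, adjusted p = 0.454). Fgfr1 was called without the first CD1 luminal library (1.17, adjusted p = 0.0327). With all 8 libraries the Fgfr1 difference of the luminal gate was therefore not shown to differ from that of the basal gate.

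The rest of the pathway was read from 101 further genes in 6 lists by role, of which 82 passed the filter. Between the CD1 gates 38 were called higher and 15 lower in basal cells, with a median difference of 0.40, where 24% of all genes tested were higher and 20.4% lower. All but 5 of the tested genes also reached the filter value in 2 luminal libraries, and 33 of those 77 were higher and 15 lower. These 2 shares of all genes are the ones to set beside the list counts between the CD1 gates that follow.

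Of 18 other genes named Fgf, 5 passed the filter, and of the 3 that also reached it in luminal libraries 0 were called higher and 2 lower. Fgf18, a secreted ligand, read 3 to 12 in luminal and 30 to 60 in basal libraries and passed the filter through the basal libraries alone. The other 4 (Fgf11 to Fgf14) are homologous factors that stay inside the cell and do not act as receptor ligands. Fgf12 read 78 to 204 in luminal and 5 to 25 in basal libraries (-2.53 ± 0.46 between the CD1 gates, adjusted p = 0.00251), and Fgf14, which also passed through the basal libraries alone, read 0 and 0 in CD1 luminal and 69 and 128 in CD1 basal libraries.

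Of 9 other receptors, co-receptors and ligand carriers tested, 6 were called higher in CD1 basal cells and 0 lower (8 at an unadjusted p under 0.05). Of the 7 that also reached the filter value in luminal libraries, 4 were called higher. Fgfr4, the fourth receptor, read 8 and 4 in CD1 luminal and 3 and 0 in DNp63 luminal libraries, against 170 and 308 in the CD1 basal pair and 380 and 131 in the DNp63 basal pair. Its luminal values are at or under 3 reads, and it passed the filter through the basal libraries alone. Cdh2, N-cadherin, which can bind and hold Fgfr1 at the surface, read 23 to 89 in luminal and 715 to 1109 in basal libraries.

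Of 22 genes of heparan sulfate chains and their carriers, 12 were called higher and 4 lower, and of the 21 that also reached the filter value in luminal libraries 11 and 4. Hs6st2, which adds 6-O-sulfate to the chains, read 4 to 12 in luminal and 559 to 780 in basal libraries, and passed the filter through the basal libraries alone. Sulf2, which removes 6-O-sulfate outside the cell, read 3925 to 6574 in luminal and 542 to 1122 in basal libraries (-2.65 ± 0.25, adjusted p = 7.3e-05). Sulf1, of the same activity, went the other way, at 40 to 171 and 1594 to 2376.

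The relay had 3 higher and 3 lower of 19, a smaller share than the 44.4% of all genes called, and the highest was Plcg1, a phospholipase C gamma (2.18 ± 0.17). Among 13 other feedback inhibitors 8 were called higher and 1 lower. Spred1, a relative of the Sprouty proteins that holds back Raf, rose by 1.33 ± 0.16, and Dusp6, the ERK phosphatase, rose by 0.59 ± 0.16 from 6620 and 7958 to 9692 and 12672. Dusp4, a phosphatase of the same family, fell by 1.11 ± 0.18. Of 14 downstream transcription factors and related targets 7 were higher and 5 lower, from Elk3 (2.85 ± 0.16) to Ccnd1, cyclin D1 (-2.01 ± 0.27). Etv5, an ETS factor induced by FGF signals, rose by 1.04 ± 0.15, whereas Etv4 did not pass (-0.13 ± 0.41, adjusted p = 0.828). Elk3 and Ets1 are also known from endothelium, whose markers rose with them, and their part was not tested.

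**Figure D5:**
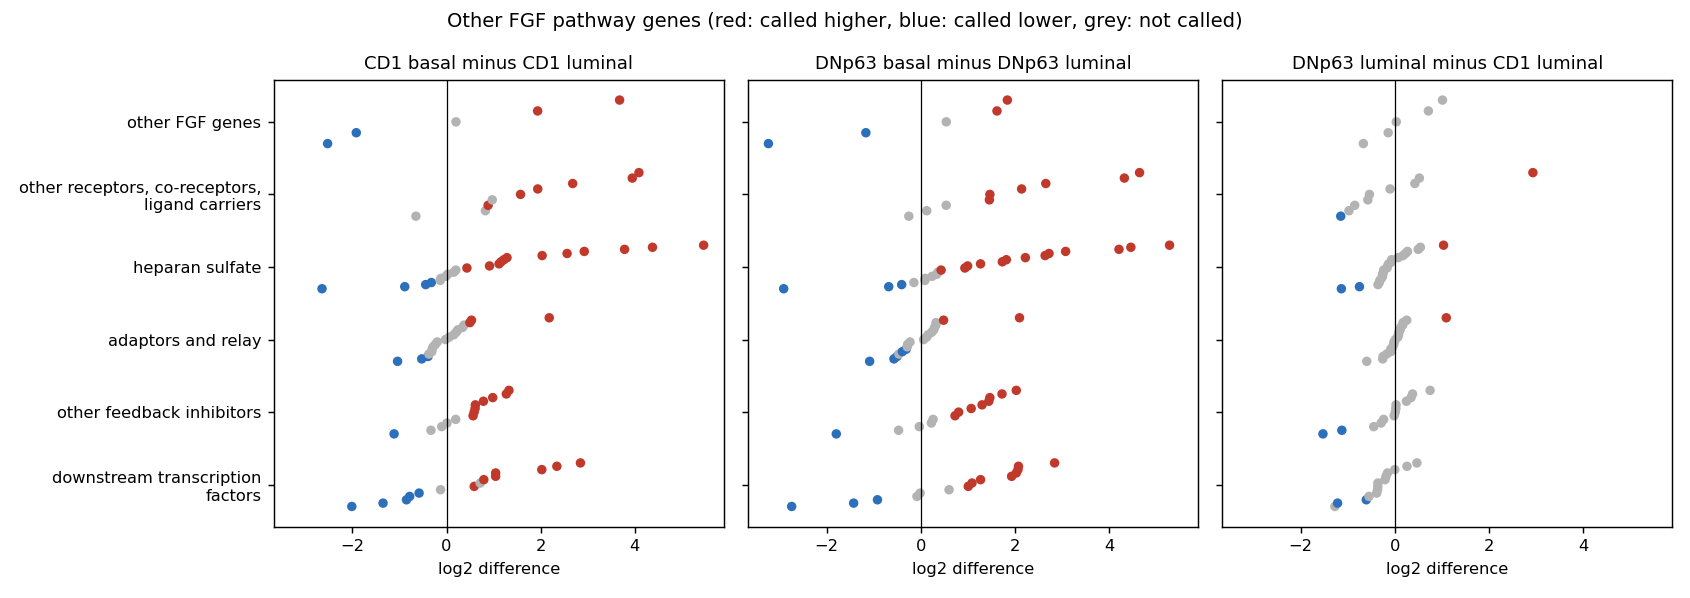
Each point is 1 of the 82 other pathway genes tested, placed by its log2 difference in rows by role, in red if called higher, blue if called lower and grey if not called, for 3 comparisons. The points of both panels of basal against luminal cells spread on either side of 0, farthest for Hs6st2, and those of DNp63 luminal against CD1 luminal lie closer to 0, with 72 of 82 in grey.

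The DNp63 gates gave 39 higher and 14 lower of the 82, beside 25.5% and 23% of all genes, and DNp63 basal against CD1 luminal gave 38 and 14, beside 25.7% and 21.3%. Without the 2 libraries of low Xist these counts were 28 and 7, and 25 and 8. Between the DNp63 gates the lower count was 9 without the first DNp63 luminal or the first DNp63 basal library, and against CD1 luminal cells it was 9 without the second DNp63 basal library. The 2 basal groups gave 0 and 0 by limma (17 at an unadjusted p under 0.05, 0 by limma voom). They gave 1 higher with the replicate block, in the fit of 2 groups and on leaving out any 1 of the 4 luminal libraries. DNp63 luminal cells differed from CD1 luminal cells in 10 of the 82, with 3 higher and 7 lower beside 2.58% and 1.76% of all genes, in 4 without either DNp63 luminal library, in 6 without the first DNp63 basal library and in 0 without the 2 libraries of low Xist. The 3 higher were Flrt1, a membrane protein that binds FGF receptors (18 and 26 against 136 and 380, a difference of 2.93 ± 0.46), Hras (1.09 ± 0.16) and the heparan sulfate carrier Sdc1 (1.03 ± 0.19). Among the 7 lower were Errfi1, an inhibitor of the EGF receptor (-1.53 ± 0.18), Fos (-1.22 ± 0.13), Flrt3 (-1.15 ± 0.27) and Gpc6 (-1.14 ± 0.26). Between the CD1 gates, a comparison that shares the CD1 luminal libraries, Flrt1 differed by 1.94 ± 0.46, Errfi1 by 0.61 ± 0.18 and Fos by 0.59 ± 0.13.

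Among the members, 2 pairs are neighbours in the genome. Fgf2 and Spry1 lie 229838 bases apart on chromosome 3, and both were higher in basal cells. Spata5, a gene between them, read 993 to 1320 in all 8 libraries, and Nudt6 read 12 to 60, a narrower range between groups than that of Fgf2 or Spry1. Fgf1 and Spry4 lie 237257 bases apart on chromosome 18.

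For each member the 3 genes of most like pattern were sought over the 8 libraries, by the root mean square difference of centred log2 values. For Spry1 they were Sh2d3c (0.13), Entpd1 (0.14) and Caskin2 (0.18), and for Spry4 9430020K01Rik (0.11), Lmcd1 (0.11) and Snrk (0.14). Entpd1 read 271 to 439 in luminal and 3338 to 3767 in basal libraries. Fgfr1 was most like Zfp574 (0.10), Parp3 (0.11) and Myo1d (0.12), and Fgfr2 most like Mgst3 (0.10), Gm37069 (0.11) and Polb (0.12). Fgfr3 was most like Zbtb1 (0.15), Fgf1 most like Palm2 (0.11), Fgf2 most like Fbln5 (0.25), Fgf7 most like Gm15910 (0.20) and Spry2 most like Zbtb14 (0.11). Fgf10 was most like Adgrd1 (0.23), Sfrp2 (0.28) and Clec3b (0.31). All had their highest value in the second CD1 luminal library, as Fgf10 did, which a choice by like pattern favours. Sfrp2 read 171 and 767 in the CD1 luminal libraries, beside 8 and 104 for Fgf10. These distances rank likeness over 8 libraries that share their depth and cell makeup, and carry no test.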

How the data were processed

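RNA of sorted mammary cells was measured in 8 libraries made with the Ovation Solo system and sequenced on an Illumina NovaSeq, per the labels' protocols. The submitters' processing notes name STAR, HTSeq and GRCm38 (mm10). Releases of the tools and annotation, and whether counting used strand, were not given in the labels or headers used here. The deposited score values are counts that the authors scaled to 20000000 per library and rounded up, per the file headers and the values. Reads were recovered from the steps between low values, with 99.81% to 99.93% of values falling on a whole read after rounding up, where chance would give 20.68% to 36.03%.

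Values were scaled by TMM factors (trims of 30% and 5%) and fitted as log2(value + 8) with limma 3.58.1 in R 4.3.3, with 4 group means, an intensity trend, and 4 residual and 4.603 prior degrees of freedom. The fold changes are on that scale and understate the change of low genes. Genes reaching 40 in at least 2 libraries were tested. The 5 comparisons between groups and their interaction were fitted, and the fit was tested on simulated data for 2 of the comparisons (CD1 basal and DNp63 luminal against CD1 luminal). Coordinates are from GENCODE M21, where 49412 of 49671 gene IDs were found.

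Named were all 10 members, the called gene of highest and of lowest difference in each of the 6 pathway lists and each comparison, and 3 genes of like pattern per member among genes with a mean of at least 100. Of the genes this rule names, 1 is not reported here. Fgf18, Sulf1, Dusp6, Etv5, Etv4, Ets1, Nudt6 and Spata5 were named after their values were seen. Single genes of the cell type marker lists, for which only sums were planned, were also named outside the rule. Among them are Cdh5, Kdr, Vwf, Rgs5, Notch3, Lep, Fabp4, Adipoq, Cd14, Ptprc, Pdgfra, Postn, Dcn and Lum. The members and lists were chosen with earlier results of these data known. Alternatives were voom on recovered reads, median scaling and no scaling, pseudocounts of 2 and 32, other filters, no intensity trend, fits of 2 groups, a replicate block, leaving out each library, and, chosen after seeing the data, leaving out the 2 libraries of low Xist.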

Additional observations from a re-analysis of the deposited data

How the results depend on the processing

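Of 1115 values of the members under alternatives, 1062 kept direction and side of the threshold, 16 lost and 6 gained a call and 31 changed sign, all of the last without a call. The cause of these changes was not tested, except that settings with fewer libraries have less information by construction. Depth limits Fgf7 and Fgf10 most: neither reached 100 in 2 libraries, so neither was tested under that filter. Fits of 2 groups cannot give the interaction.

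In DNp63 luminal against CD1 luminal cells the count of genes called was 734, with 401 without the intensity trend, 317 in the fit of 2 groups and 33 without the libraries of low Xist (145 to 971 leaving out 1 library), and the count of members fell from 1 to 0 in each (0 to 1 leaving out 1 library). Without the libraries of low Xist the gene counts were 4841 in place of 7943 for DNp63 basal against CD1 luminal, 17 in place of 102 for DNp63 basal against CD1 basal, 3728 in place of 8201 between the DNp63 gates (5 members in place of 8) and 0 in place of 56 for the interaction. The 102 genes became 57 by voom, 60 without a filter, 31 without the trend and 3 to 184 leaving out 1 library, and the 56 became 26, 13, 15 and 4 to 141, with 103 at a pseudocount of 32. The interaction gave 0 to 1 members leaving out 1 library.

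Replicate numbers are shared across groups, but the labels do not say that they mark a shared animal or batch, and with 2 pairs the correlation of replicate differences (0.341 between the CD1 gates, 0.266 between the DNp63 gates, -0.014 to 0.041 elsewhere) is a description. With the replicate number as a block the counts were 160 in place of 102 and 111 in place of 56, and 7737, 883, 8223 and 8438 for CD1 basal against CD1 luminal, DNp63 luminal and DNp63 basal against CD1 luminal and the DNp63 gates; the block changed no member's call.

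Signs that changed belonged to small or low values. Between the CD1 gates Fgfr1 was -0.0089 by voom. In DNp63 luminal against CD1 luminal cells Fgf2 was 0.0372 by voom, 0.0315 without scaling, 0.0018 at a pseudocount of 32 and 0.57 without the libraries of low Xist, and Fgf7 was 0.0807 by voom and 0.44 without those libraries. Between the basal groups without them Fgfr1 was -0.0076, Spry1 0.0604 and Spry2 0.0094. Leaving out 1 library, the ranges that crossed 0 were as follows. Between the CD1 gates Fgfr1 ranged from -0.24 to 0.29 and Fgf10 from -2.33 to 0.51. In DNp63 luminal against CD1 luminal cells Fgfr2 ranged from -0.0883 to 0.50, Fgf2 from -0.65 to 0.57, Fgf7 from -1.03 to 0.82 and Fgf10 from -2.38 to 0.45. In DNp63 basal against CD1 luminal cells Fgfr1 ranged from -0.19 to 0.34 and Fgf10 from -1.07 to 1.76. Between the basal groups Fgfr1 ranged from -0.0076 to 0.0912, Spry1 from -0.25 to 0.0604 and Spry2 from -0.42 to 0.25. In the interaction Fgfr2 ranged from -0.58 to 0.004, Fgf7 from -1.04 to 0.82 and Spry4 from -0.032 to 0.38.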
